A study of Mus musculus with 36 samples.

Results

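The genes described here encode the mitochondrial respiratory chain and ATP synthase, in mouse skin before and after wounding. Members were chosen by gene symbol: the Ndufa, Ndufb, Ndufc, Ndufs and Ndufv genes of complex I, Sdha to Sdhd of complex II, Uqcr genes and Cyc1 of complex III, Cox4 to Cox8 genes of complex IV, Atp5 genes of ATP synthase, and the genes of mitochondrial DNA whose symbols begin mt-Nd, mt-Co, mt-Cyt and mt-Atp, without symbols marked -ps. The rule found 114 of the 55414 genes counted, 101 on nuclear chromosomes and 13 on mitochondrial DNA. Of these, 93 nuclear and 12 mt- genes had enough counts to be tested, and mt-Nd4l, a second entry for Atp5o, Cox8c, Cox7b2, Ndufb11b, Cox6c2, Ndufa11b, Ndufb4c and Ndufs6b did not.

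The series holds 36 bulk RNA-seq libraries of mouse skin biopsies, and its title names the removal of cells with high p21 as its subject. Wounds of an arm labelled PD numbered 5 at day 2, 6 at day 4 and 6 at day 12 after injury, wounds of an arm labelled P numbered 5, 5 and 6 on those days, and 3 libraries came from unwounded skin, labelled Day0. The labels do not spell out PD and P and give no strain, allele, age or sex, so the arms are called by their letters, and nothing in them says whether libraries of a group came from separate animals. The p-values therefore measure the spread between these libraries, which may be partly technical.

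Complexes I to IV pass electrons from NADH and succinate to oxygen. All of them except complex II pump protons across the inner mitochondrial membrane, and ATP synthase uses the proton gradient to make ATP. Complexes I, III and IV and ATP synthase are built from subunits of both genomes, while all subunits of complex II are nuclear. Skeletal muscle fibres are rich in mitochondria and use their own isoforms of some complex IV subunits. In mouse skin a thin muscle sheet, the panniculus carnosus, lies under the dermis and is cut through by a full-thickness wound.

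Part of the respiratory chain genes were called lower in wounds than in unwounded skin. They were 27, 26 and 41 of 93 nuclear genes and 3, 6 and 11 of 12 mt- genes at days 2, 4 and 12. Of all genes tested, 21.7%, 23.4% and 22.8% were called lower on these days. Without unwounded replicate 2 the counts were 9, 9 and 18 nuclear and 2, 2 and 8 mt- genes, and the share of all genes called without it is not given here. At day 12 the median log2 fold change was -1.37 over the 12 mt- genes and -0.39 over the 93 nuclear genes, against 0.10 over all 20657 genes tested. Cox6a1 and Cox8a, widely expressed complex IV subunits, rose on every day, while Cox7a1, the muscle isoform of another subunit, fell on every day. No gene passed edgeR's test between PD and P wounds on any day. At day 4 limma-voom called 16 nuclear and 2 mt- members, beside 4.72% of all genes higher and 5.23% lower. DESeq2 called no member, though it called 0.891% of all genes at day 4. Skeletal muscle markers also fell in wounds, and the members' values with the marker level in the model follow the results by complex.

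Libraries held 11807291 to 58375510 gene counts. Levels are CPM, the counts of a gene scaled to a common library size, after a composition correction (TMM), and "called" means a Benjamini-Hochberg adjusted p under 0.05 in edgeR's quasi-likelihood test over all genes. The gene Cdkn1a, which encodes p21, averaged 316 ± 81.7 and 372 ± 58.99 CPM in PD and P wounds at day 2, 656 ± 188 and 495 ± 134 CPM at day 4, 351 ± 53.2 and 266 ± 39.0 CPM at day 12 and 228 ± 29.7 CPM in unwounded skin (SD). It was not called between the arms on any day. Keratinocyte markers such as Krt5 and Krt14 identify the tissue as skin, and the summed level of 8 basal keratinocyte markers ranged from 3319 to 25569 CPM in wounds and from 13342 to 21641 CPM in unwounded skin. In bulk tissue, fewer cells of a type and less RNA per cell cannot be told apart.

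Counts of mitochondrial genes need care, because nuclear DNA holds copies of mitochondrial DNA and reads that fit both places are often discarded in gene counting. In GRCm39, chr1:24650616-24655269 on the minus strand matches mitochondrial positions 6390 to 11042 over 4654 aligned bases at 99.94% identity. The first 60 bases of mt-Co2 (M, 7013 to 7072, plus strand) and the nuclear copy at chr1:24654587-24654646 (minus strand) are shown because they are the same, with identical bases in capitals.
mt-Co2, mitochondrial: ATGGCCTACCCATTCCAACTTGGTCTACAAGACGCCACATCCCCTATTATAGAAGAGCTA
mt-Co2, nuclear copy: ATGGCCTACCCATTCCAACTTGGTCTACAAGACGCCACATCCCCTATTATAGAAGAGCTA
The copy ends inside mt-Nd4. Mitochondrial positions 11003 to 11062 (plus strand) and chr1:24650596-24650655 (minus strand) share their first 40 bases, in capitals, and then diverge.
mt-Nd4, mitochondrial: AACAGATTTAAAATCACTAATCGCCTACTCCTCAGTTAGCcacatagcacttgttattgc
mt-Nd4, nuclear copy: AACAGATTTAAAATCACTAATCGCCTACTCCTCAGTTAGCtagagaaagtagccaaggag
Every 100-base window of mt-Co2, mt-Atp8, mt-Atp6, mt-Co3 and mt-Nd4l and 98.8% of those of mt-Nd3 occur exactly in nuclear DNA, as do 60.8% of mt-Nd4, 30.8% of mt-Co1, 3.2% of mt-Nd2 and none of mt-Nd1, mt-Nd5, mt-Nd6 and mt-Cytb.

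In unwounded skin mt-Co1 averaged 14438 CPM per kilobase and mt-Nd1 averaged 9037, while mt-Co2, a subunit of the same enzyme as mt-Co1, averaged 10.05. Levels did not follow the share of copied windows throughout: mt-Nd6, with none, averaged 53.9 CPM per kilobase, and mt-Co1, with 30.8%, was above mt-Nd1. The median tested nuclear member averaged 38.3 CPM per kilobase there, and the highest was Cox6a2 at 524.5. Because reads of the 6 genes copied over nearly their whole length cannot be told apart from their nuclear copies, the other 7 are described first. The part of the copies in the level of any mt- gene was not tested. For nuclear members, the median share of 50-base windows with an exact copy elsewhere in the genome was 0.9%, and the highest was 49.7% in Uqcrb, a complex III subunit whose level is correspondingly uncertain.

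Summed over members, the mt- genes reached 14944, 23607 and 48205 CPM (lowest, median and highest of 12 libraries) in day-12 wounds, against 56299, 73723 and 51834 CPM in the 3 unwounded libraries. The 2 groups did not overlap at day 12. At day 2 the lowest, median and highest of 10 wounds were 29904, 35770 and 58843 CPM, and at day 4 those of 11 wounds were 22446, 28003 and 65657 CPM, so single wounds on both days reached the unwounded range. The nuclear sum was 10295, 13182 and 16669 CPM at day 2, 9664, 12430 and 21135 CPM at day 4 and 7606, 11355 and 18382 CPM at day 12, against 16470, 19617 and 14968 CPM in unwounded skin. Nuclear sums overlapped the unwounded range on each day. The ratio of the mt- sum to the nuclear sum was 1.65 to 2.65 in day-12 wounds and 3.42 to 3.76 in unwounded skin, again without overlap, while it reached 4.25 at day 2 and 5.004 at day 4.

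**Figure D1:**
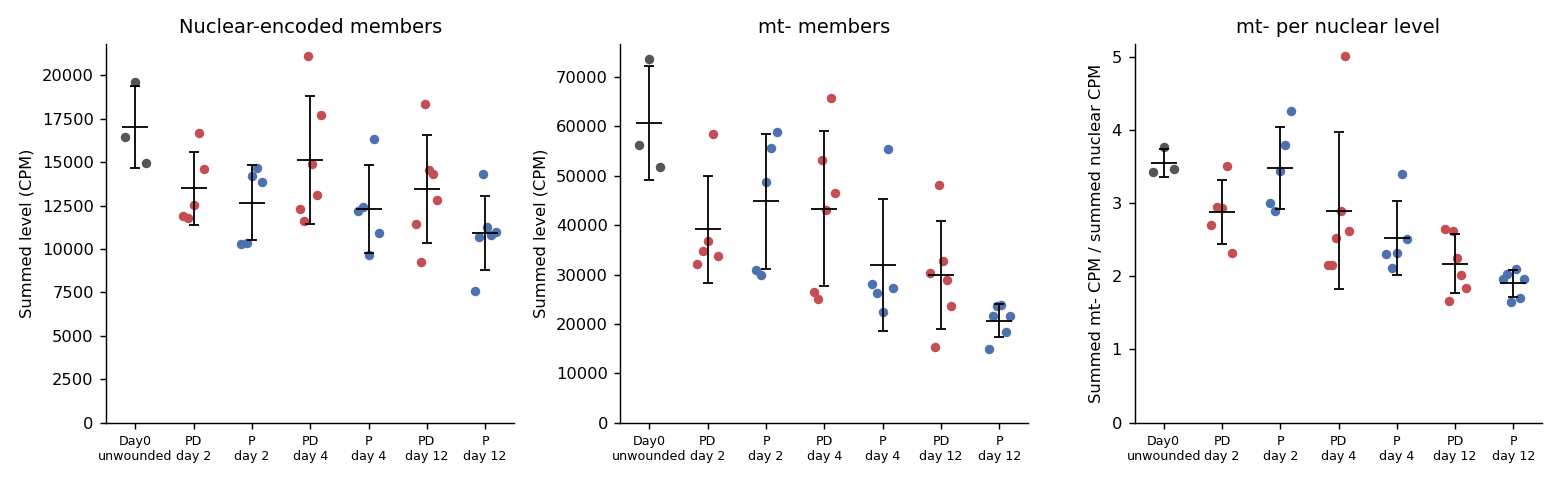
Summed level of the nuclear members (left), of the mt- members (middle) and their ratio (right) in each library, the sums in CPM, by group; horizontal lines are group means and bars are SD. The mean mt- sum was 29846 CPM in PD and 20655 CPM in P wounds at day 12 and 60619 CPM in unwounded skin.

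Among the mt- genes, the number called lower grew with time. It was 3 of 12 at day 2, where 21.7% of all genes were called lower, 6 of 12 at day 4, where 23.4% were, and 11 of 12 at day 12, where 22.8% were. None was called higher on these days, against 23.3%, 26.1% and 25.9% of all genes. The 7 genes without a full nuclear copy had median log2 fold changes of -0.49, -0.62 and -1.23 on these days, with 1, 4 and 7 of them called lower. Without unwounded replicate 2, the library with the highest mt- sum of that group, the counts over 12 genes were 2, 2 and 8. Without unwounded replicate 1 the day-4 count was also 2. The shares of all genes called without these libraries are not given here.

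The gene with the largest decrease among those 7 was mt-Nd2, a core subunit of complex I. Its level was 2379, 3373 and 4437 CPM (lowest, median and highest) in day-2 wounds, 1599, 2020 and 3572 CPM in day-4 wounds and 859, 1414 and 2963 CPM in day-12 wounds, against 6351, 8263 and 5503 CPM in unwounded skin. Every wound lay below every unwounded library. The log2 fold change was -0.97 ± 0.25 (SE) at day 2, -1.49 ± 0.24 at day 4 and -2.15 ± 0.23 at day 12, with adjusted p of 0.00185, 6.33e-06 and 7.61e-09 (edgeR). All 3 calls held without any single library.

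The neighbouring complex I gene mt-Nd1 changed less. It had 2380, 3550 and 6993 CPM in day-12 wounds, against 8261, 10275 and 7409 CPM in unwounded skin, and fell by 1.23 ± 0.23 on the log2 scale (adjusted p = 5.83e-05, edgeR). At day 4 its change of -0.62 was called with all libraries and not without unwounded replicate 1 or 2. As a result, mt-Nd2 per mt-Nd1 was 0.404 to 0.630 at day 2, 0.361 to 0.465 at day 4 and 0.322 to 0.465 at day 12, against 0.743 to 0.804 in unwounded skin. This ratio was chosen after its values were seen and carries no test.

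Other subunits of complex I on mitochondrial DNA fell by day 12. The log2 fold change was -1.41 ± 0.27 for mt-Nd5 and -1.33 ± 0.30 for mt-Nd4, both also called at day 4 with values of -0.74 and -0.78. The day-4 call of mt-Nd5 was lost without unwounded replicate 1 or 2, and that of mt-Nd4 without any unwounded library, PD day-4 replicate 1 or 2, or P day-4 replicate 1, 2, 3 or 5. The gene mt-Nd6, the only protein gene on the other strand of mitochondrial DNA, had changes of 0.26 at day 2 and -0.02 at day 4, neither called, and fell by 0.80 ± 0.28 at day 12 (adjusted p = 0.0201, edgeR). In complex IV mt-Co1, the catalytic subunit, reached 5778, 8988 and 18536 CPM in day-12 wounds, against 20678, 26712 and 19532 CPM in unwounded skin. All day-12 wounds were below all unwounded libraries, and the log2 fold change was -1.21 ± 0.27 (adjusted p = 0.000564, edgeR). The only complex III gene of the mitochondrial genome, mt-Cytb, fell by 1.08 ± 0.31 at day 12. The day-12 calls of mt-Cytb and mt-Nd6 were lost without unwounded replicate 2.

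The genes with full nuclear copies are listed for completeness at levels of a few CPM. At day 12, mt-Atp6, a proton channel subunit of ATP synthase, had a log2 fold change of -1.71 and mt-Co3 one of -1.65, both called, and mt-Co2 had -0.86, not called. The call of mt-Atp6 was lost without unwounded replicate 2 and that of mt-Co3 without unwounded replicate 1. The largest negative value of all members belonged to mt-Nd3 at -3.84, on levels of 0.374, 5.96 and 0.839 CPM in the 3 unwounded libraries. That value rests on unwounded replicate 2, and the calls at days 2 and 4 were lost without it. The level of mt-Atp8 was at most 1.23 CPM in the unwounded libraries, and its log2 fold change at day 12 was -3.46, with calls at days 2 and 4 that were lost without unwounded replicate 1. The gene mt-Nd4l had 145 counts over all 36 libraries and was not tested.

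**Figure D2:**
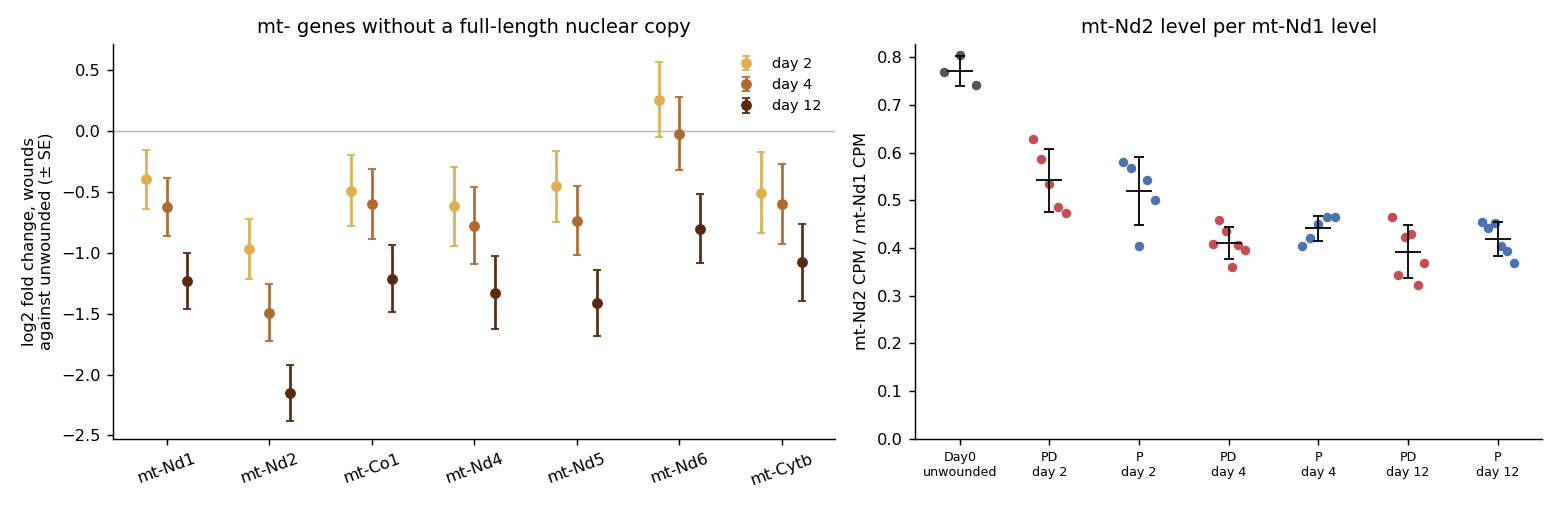
Left, log2 fold change against unwounded skin (± SE) at days 2, 4 and 12 for the 7 mt- genes without a full nuclear copy; right, the ratio of mt-Nd2 to mt-Nd1 level in each library, with group means and SD. mt-Nd2 lies lowest on each day, from -0.97 at day 2 to -2.15 at day 12, and its ratio to mt-Nd1 is at most 0.630 in every wound and at least 0.743 in unwounded skin.

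Of the 93 nuclear members, 3 were called higher and 27 lower at day 2, 3 higher and 26 lower at day 4, and 5 higher and 41 lower at day 12. The background, given above with the mt- genes, was 21.7%, 23.4% and 22.8% of all genes called lower. The medians were -0.30, -0.21 and -0.39, against 0.02, 0.07 and 0.10 over all genes tested. Without unwounded replicate 2, the numbers called lower were 9, 9 and 18, so the count depends on that library. The number of all genes called without it is not given here, so that fall has no background to be read against. With library totals alone in place of the composition correction, the day-12 split was 6 higher and 22 lower, in a fit whose median over all genes was 0.35 in place of 0.10. In that fit 7377 of all 20657 genes were called higher and 2988 lower.

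Complex I has 7 nuclear core subunits, which carry the electron path, and 30 accessory ones by the symbols used here. Of the core subunits, 3, 3 and 5 fell at days 2, 4 and 12, with medians of -0.41, -0.43 and -0.54. The largest core subunit, Ndufs1, which holds iron-sulfur clusters, reached 67.8, 95.5 and 181 CPM in day-12 wounds, against 206, 284 and 181 CPM in unwounded skin. The highest day-12 wound, at 181.3 CPM, reached just above the lowest unwounded library, at 180.6 CPM, and the log2 fold change was -1.13 ± 0.17 (adjusted p = 2.78e-06, edgeR). Of the accessory subunits, 8, 6 and 11 of 30 were called lower and none higher, a share near the 21.7% and 23.4% of all genes at days 2 and 4 and above the 22.8% at day 12. Among them Ndufb2 showed the clearest separation. It had 5.86 to 12.7 CPM at day 2, 8.33 to 15.5 CPM at day 4 and 7.85 to 15.8 CPM at day 12, against 18.7, 18.3 and 18.1 CPM in unwounded skin, with changes of -0.95, -0.77 and -0.69, all called.

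The complex I assembly factors, which help build the enzyme without being part of it, moved in both directions. Of 8, 1 was called higher on each day and 3, 4 and 4 lower. Of all genes, 23.3%, 26.1% and 25.9% were called higher and 21.7%, 23.4% and 22.8% lower. The one that rose, Ndufaf2, had 9.02 to 12.7 CPM at day 2, 10.1 to 14.1 CPM at day 4 and 9.06 to 12.5 CPM at day 12, against 8.04, 8.90 and 6.34 CPM in unwounded skin. No wound overlapped the unwounded range, though the calls at days 2 and 12 were lost without unwounded replicate 3. Ndufaf4 fell by 0.57 ± 0.13 at day 12 and its call was lost without unwounded replicate 2.

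Complex II, which links the citrate cycle to the chain by oxidising succinate, had all 4 subunits called lower at day 12, with a median of -0.84. Of all genes, 22.8% were called lower at day 12. Sdha, the flavoprotein that binds succinate, reached 252, 314 and 358 CPM at day 2, 189, 250 and 391 CPM at day 4 and 170, 213 and 406 CPM at day 12, against 512, 688 and 435 CPM in unwounded skin. All wounds were below all unwounded libraries. Its log2 fold changes on days 2, 4 and 12 were -0.80 ± 0.19, -1.05 ± 0.18 and -1.25 ± 0.18, with adjusted p of 0.000714, 1.75e-05 and 1.01e-06 (edgeR). The iron-sulfur subunit Sdhb fell by 0.90, 1.11 and 0.93 on the 3 days. Of the membrane anchors, Sdhc had -0.44 at day 2, not called, and was called at -0.53 and -0.75 on days 4 and 12, and Sdhd was called only at day 12, at -0.52. The calls of Sdhc at day 4 and of Sdhd were lost without unwounded replicate 2.

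In complex III 3, 3 and 5 of 9 nuclear members were called lower and none higher, with medians of -0.32, -0.36 and -0.49. Of all genes, 21.7%, 23.4% and 22.8% were called lower on these days. Uqcrc2, a core protein of the matrix side and the member of this complex with the largest decrease, fell by 0.73, 0.85 and 0.90 and kept its calls except, at day 2, without unwounded replicate 2. Cyc1, the subunit that passes electrons to cytochrome c, was called at day 12 only, at -0.49 ± 0.20 (adjusted p = 0.0395, edgeR), and lost the call without unwounded replicate 1 or 2, PD day-12 replicate 1, 2 or 5, or P day-12 replicate 1 or 2. Of 17 nuclear ATP synthase members, 4, 4 and 6 were called lower and none higher, which at days 2 and 4 is near the 21.7% and 23.4% of all genes. Atp5c1, the central stalk subunit gamma, fell by 0.73, 0.77 and 0.95. Uqcrc2 and Atp5c1 were picked out after their values were seen.

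**Figure D3:**
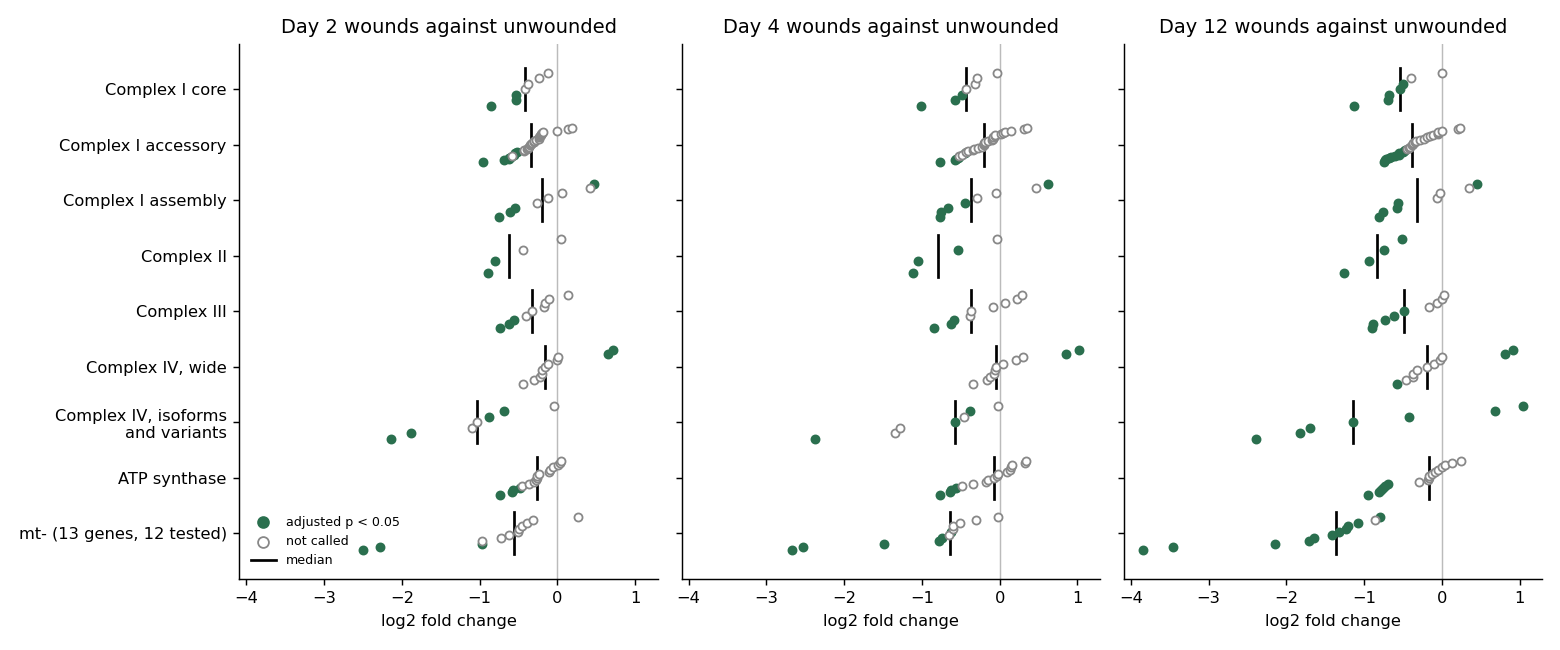
log2 fold change of every tested member against unwounded skin at days 2, 4 and 12, by role; filled points passed the test (adjusted p under 0.05), open points did not, and vertical bars are medians. The widely expressed complex IV subunits centre near 0, with medians of -0.16, -0.05 and -0.19, while the mt- genes move to a median of -1.37 at day 12.

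Complex IV, cytochrome c oxidase, is described by widely expressed and tissue-restricted subunits. Of its 11 widely expressed nuclear subunits, 2 were called higher on each day. None was called lower at days 2 and 4 and 1 was at day 12, with medians of -0.16, -0.05 and -0.19. The shares of all genes were 23.3%, 26.1% and 25.9% higher and 21.7%, 23.4% and 22.8% lower. The 2 that rose were Cox6a1 and Cox8a, which are also the widely expressed partners of muscle isoforms. Cox4i1, the partner of Cox4i2, had values of -0.19, 0.04 and -0.10, and Cox7a2, the partner of Cox7a1, had 0.00, 0.21 and -0.01, none of them called. The subunit called lower at day 12 was Ndufa4, first assigned to complex I and now counted in complex IV, at -0.57.

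Cox6a1 had 130, 167 and 178 CPM (lowest, median and highest) at day 2, 174, 200.2 and 225 CPM at day 4 and 146, 187 and 228 CPM at day 12, against 107, 87.7 and 99.3 CPM in unwounded skin. Every wound was above every unwounded library. Its log2 fold changes on days 2, 4 and 12 were 0.72 ± 0.12, 1.02 ± 0.12 and 0.91 ± 0.12, with adjusted p of 1.28e-05, 6.06e-08 and 3.33e-07 (edgeR). Cox8a reached 109 to 177 CPM at day 2, 147 to 210.0 CPM at day 4 and 121 to 227 CPM at day 12, against 106, 90.1 and 89.8 CPM in unwounded skin. It too showed no overlap, and its values were 0.66 ± 0.14, 0.85 ± 0.14 and 0.81 ± 0.14. The calls of Cox6a1 and Cox8a against unwounded skin held in every alternative and without any single library.

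Among members, Cox6a1, Cox8a and Ndufaf2 were the only 3 of 93 whose 33 wound libraries all lay above the 3 unwounded ones, a share of 3.23%, against 7.16% of all genes tested. Another 5 nuclear members, 5.38%, lay wholly below, namely Cox7a1, Cox7a2l, Ndufaf1, Ndufb2 and Sdha, against 7.50% of all genes. Of the 12 mt- genes, 2 lay wholly below, mt-Nd2 and mt-Atp8, or 16.7%, and 0 wholly above. With day-12 wounds alone, 7 mt- genes lay wholly below, or 58.3%, against 14.8% of all genes.

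The muscle isoforms went the other way. Cox7a1, which replaces Cox7a2 in heart and skeletal muscle, had 8.47, 21.2 and 38.3 CPM at day 2, 3.07, 10.3 and 44.7 CPM at day 4 and 2.46, 12.0 and 54.7 CPM at day 12, against 72.5, 101 and 67.6 CPM in unwounded skin. No wound reached the unwounded range, and the changes were -1.89 ± 0.59, -2.38 ± 0.57 and -2.39 ± 0.56, all called, the first not without unwounded replicate 2. Cox6a2, the muscle partner of Cox6a1, reached 12.7, 95.9 and 316 CPM at day 12, against 367, 430 and 280 CPM in unwounded skin. Its range overlapped the unwounded one, and it was called only at day 12, at -1.83 ± 0.60. Cox8b, the muscle partner of Cox8a, had 2.90, 27.4 and 96.4 CPM at day 12, against 98.9, 117 and 85.5 CPM in unwounded skin, and a called change of -1.70 ± 0.63. Both day-12 calls were lost without unwounded replicate 2, and that of Cox8b also without replicate 1.

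Expressed per length of all annotated exons of a gene joined, the muscle isoform made up a smaller share of each pair in wounds. This length was 603 bases for Cox7a1 and 5914 for Cox7a2, and 2389 for Cox8b and 892 for Cox8a. The size of a share therefore depends on the annotation as well as on the counts. Cox6a2 was 8.08 to 71.0% of Cox6a1 and Cox6a2 together over the 33 wounds, with a median of 38.4%, against 74.6 to 83.6% in unwounded skin. Cox7a1 was 26.98 to 80.9% of its pair in wounds and 88.0 to 90.6% in unwounded skin, and Cox8b was 0.888 to 20.5% of its pair in wounds and 25.9 to 32.6% in unwounded skin. None of these shares overlapped. The mean Cox6a2 share was 48.4 ± 14.1% in PD wounds and 51.6 ± 13.6% in P wounds at day 2, 44.0 ± 19.97% and 29.4 ± 19.2% at day 4, and 42.2 ± 18.2% and 25.1 ± 14.9% at day 12 (SD). The arms overlapped on each day, and the shares were not tested. Each share was higher in libraries with a higher summed level of 18 skeletal muscle markers, among them Acta1, Ckm and Myh4, which was 3452 to 100647 CPM in wounds, with a median of 30546 CPM, and 88827 to 141861 CPM in unwounded skin.

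**Figure D4:**
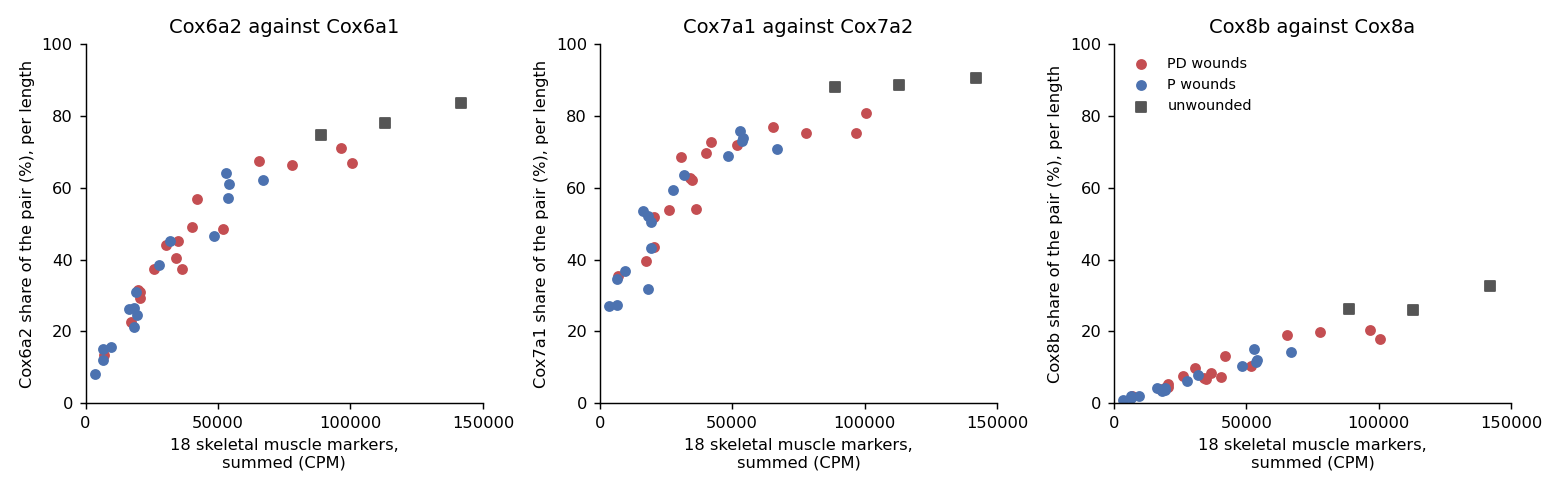
Share of the muscle isoform in 3 complex IV pairs, per joined exon length, against the summed level of 18 skeletal muscle markers in each library, in CPM. Shares are higher where the marker level is higher, in PD and in P wounds, and the 3 unwounded libraries lie at the upper end, at 74.6 to 83.6% for Cox6a2.

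The promoters of 4 members of these pairs are shown because these genes of 1 enzyme had calls in opposite directions: Cox6a1 and Cox8a higher, Cox7a1 and, at day 12, Cox8b lower. They are the 250 bases before the start site, from RefSeq on GRCm38.p6, which is not the build of the counts. The motif letters searched on both strands are in capitals: the NRF1 core GCGCATGCG, the ETS core CCGGAAG, which reads CTTCCGG on the other strand, the ERR element TCAAGGTCA, the MEF2 core CTATTTATA, the CCAAT box, which reads ATTGG on the other strand, and the myogenic E box CAGCTG. None of these motifs contains another.
Cox6a1, chr5:115348959-115349208, minus strand: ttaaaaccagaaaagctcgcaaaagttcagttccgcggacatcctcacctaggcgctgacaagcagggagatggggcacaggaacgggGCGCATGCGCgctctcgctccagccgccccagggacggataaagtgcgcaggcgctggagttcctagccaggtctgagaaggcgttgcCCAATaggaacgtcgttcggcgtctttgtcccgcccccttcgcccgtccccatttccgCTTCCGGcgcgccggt
Cox8a, chr19:7217617-7217866, minus strand: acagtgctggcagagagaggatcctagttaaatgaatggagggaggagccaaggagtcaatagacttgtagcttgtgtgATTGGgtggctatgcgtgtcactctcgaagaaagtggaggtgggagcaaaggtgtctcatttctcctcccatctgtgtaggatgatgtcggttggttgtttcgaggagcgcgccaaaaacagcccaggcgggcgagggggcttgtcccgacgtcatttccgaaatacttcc
Cox7a1, chr7:30183921-30184170, plus strand: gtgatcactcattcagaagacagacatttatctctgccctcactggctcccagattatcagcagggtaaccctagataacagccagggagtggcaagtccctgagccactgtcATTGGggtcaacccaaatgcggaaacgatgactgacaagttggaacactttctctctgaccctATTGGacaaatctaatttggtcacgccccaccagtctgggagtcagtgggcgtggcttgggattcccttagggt
Cox8b, chr7:140900447-140900696, minus strand: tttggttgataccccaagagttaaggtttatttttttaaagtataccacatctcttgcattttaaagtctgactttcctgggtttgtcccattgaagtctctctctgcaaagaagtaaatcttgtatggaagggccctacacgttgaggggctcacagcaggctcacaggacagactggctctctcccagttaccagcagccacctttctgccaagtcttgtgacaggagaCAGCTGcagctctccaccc
The Cox6a1 window held an NRF1 core 162 bases, matched on both strands with an overlap, a CCAAT box 74 bases and an ETS core 16 bases before the start. Cox8a held a CCAAT box at 171 bases, Cox7a1 held CCAAT boxes at 137 and 74 bases, and Cox8b held an E box at 19 bases.

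Promoters were matched for 77 nuclear member genes. The NRF1 core was in 9.1% of them, in Ndufa8, Ndufa11, Ndufaf4, Cox6a1, Atp5k, Atp5l and Atp5g2, against 1.6% of 27025 promoters of all genes. The ETS core was in 18.2% against 7.8%, the CCAAT box in 44.2% against 37.5%, the ERR element in 1.3% against 0.4%, the MEF2 core in 0.0% against 0.5% and the E box in 7.8% against 14.7%. NRF1, the ETS factor GABP and ERR proteins are known activators of nuclear respiratory genes. A match of letters does not show that a factor binds there.

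The other complex IV variants had courses of their own. Ndufa4l2, a relative of Ndufa4 known as a target of hypoxia signalling, had 13.999, 23.6 and 36.4 CPM at day 2, 34.05, 57.7 and 137 CPM at day 4 and 12.1, 38.8 and 90.7 CPM at day 12, against 119, 71.7 and 126 CPM in unwounded skin. It fell by 2.14 ± 0.43 at day 2 (adjusted p = 0.000144, edgeR), had -0.46 at day 4, not called, and was called at -1.14 at day 12, a call lost without unwounded replicate 1 or 3. Cox4i2, a lung isoform also tied to low oxygen, had values near 0 at days 2 and 4 and rose by 1.05 ± 0.31 at day 12, when it reached 2.08, 4.74 and 7.80 CPM, against 2.47, 2.05 and 2.46 CPM in unwounded skin. Cox6b2, known from testis, fell by 0.88 at day 2 and by 0.57 at day 4 and was called higher at day 12, at 0.68. Its day-12 call was lost without unwounded replicate 1 or 2, and its day-4 call without unwounded replicate 2 or 3, PD day-4 replicate 3, or P day-4 replicate 1 or 4. Cox7a2l, which joins complexes III and IV into supercomplexes, had 99.3 to 129.8 CPM at day 2, 123 to 156 CPM at day 4 and 97.7 to 153 CPM at day 12, against 176, 174 and 194 CPM in unwounded skin. It fell by 0.68 ± 0.10, 0.39 ± 0.10 and 0.43 ± 0.10.

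Skeletal muscle markers, which fell in wounds, were taken into the test as a further term. Without that term, 21.7%, 23.4% and 22.8% of all genes were called lower at days 2, 4 and 12. Of the 18 markers, all detected in unwounded skin, 8, 12 and 15 were called lower, and their medians were -1.59, -1.62 and -1.89. With the log2 of their summed level in the model, nuclear members were called higher in 13, 42 and 35 cases and lower in 11, 9 and 9, and their medians were 0.07, 0.25 and 0.27. Of all 20657 genes, 5129, 5467 and 4956 were then called higher and 4734, 4963 and 4565 lower, 47.7%, 50.5% and 46.1% in either direction. Of the original lower calls, 11 of 27, 9 of 26 and 9 of 41 remained, and none became a higher call.

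The 9 that remained at day 12 were Sdha, Cox7a2l, Atp5a1, Atp5c1, Ndufs1, Ndufaf1, Ndufaf4, Uqcrc2 and Ndufa4l2. Sdha then had -0.68 ± 0.12 (adjusted p = 5.65e-05, edgeR) and Ndufa4l2 had -1.87 ± 0.52. Cox7a1 had -0.35 ± 0.19 and was no longer called at day 12, Cox6a2, Cox8b and Cyc1 had 0.35, 0.54 and 0.11 and were not called, and Cox4i2 lost its day-12 call. Cox6a1 and Cox8a changed little, to 0.87 ± 0.14 and 0.94 ± 0.15. Beside the numbers of all genes given above for this fit, 3, 3 and 5 of the mt- genes were then called lower. At day 12 these were mt-Nd1, mt-Nd2, mt-Nd5, mt-Nd3 and mt-Atp8, with mt-Nd2 at -1.47 ± 0.20 (adjusted p = 8.33e-07, edgeR) and mt-Nd1 at -0.57 ± 0.19.

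**Figure D5:**
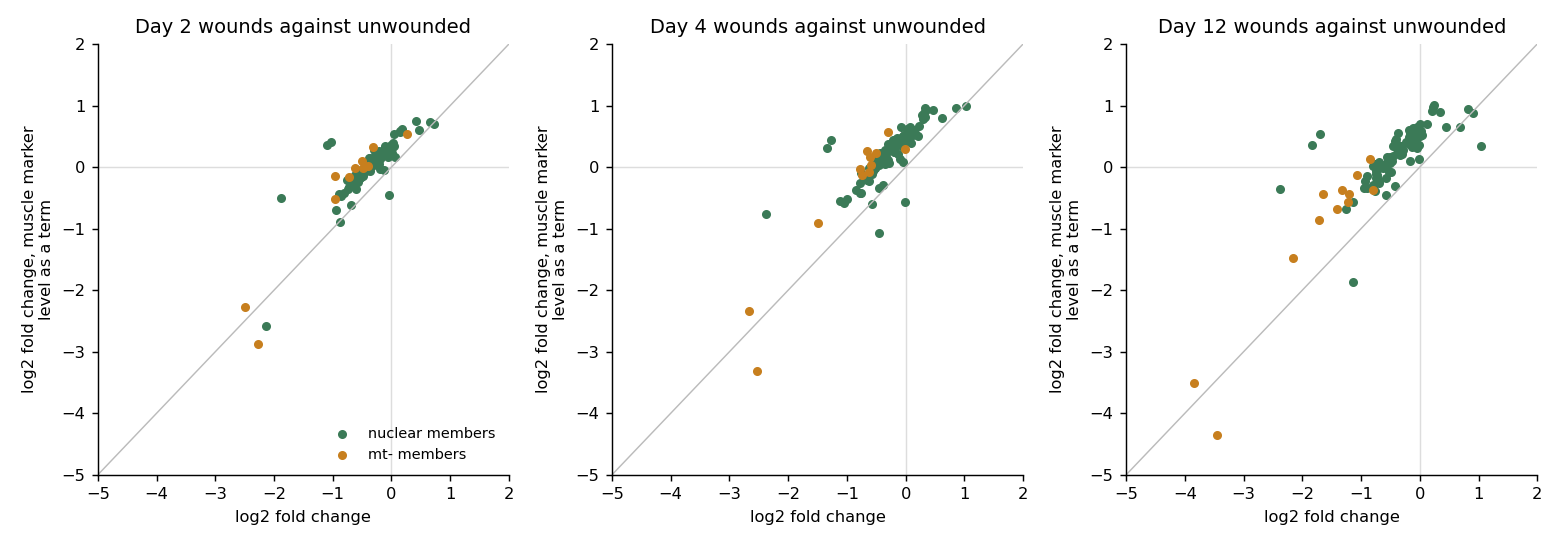
log2 fold change of each tested member against unwounded skin without (horizontal axis) and with (vertical axis) the muscle marker level as a term, at days 2, 4 and 12; the diagonal marks equal values. Most points lie above the diagonal, and the median of the nuclear members at day 12 is 0.27 with the term and -0.39 without it.

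Other cell types changed as well. All 10 neutrophil and all 10 macrophage markers rose at days 2 and 4, 14 of 14 adipocyte markers fell by day 12, when 7 of 8 basal keratinocyte markers were also lower and 9 of 9 hair follicle markers higher, and 3, 4 and 4 of 7 fibroblast markers rose. For comparison, 23.3%, 26.1% and 25.9% of all genes were called higher and 21.7%, 23.4% and 22.8% lower on these days. Of 9 differentiated keratinocyte markers, 0, 1 and 1 were called higher and 7, 1 and 4 lower. Of 6 brown fat markers, 3, 2 and 2 were called higher and 2 lower on each day. That list includes the member Cox7a1 and the regulator Ppargc1a, so it is not separate from the genes described here. Of 7 T cell markers, 0, 1 and 1 were called higher and 3 lower on each day, and of 5 erythroid markers all 5 were higher at day 2 and none later. No endothelial marker of 6 was called. The summed level of fibroblast markers set replicates 1 and 2 apart at day 12, at 41923 to 86662 CPM in those 4 libraries and 10850 to 25578 CPM in the other 8. The mt- sum set replicates 1 and 2 apart in PD wounds at day 4, at 26531 and 25016 CPM, against 43064 to 65657 CPM. It did so too in P wounds at day 2, at 30882 and 29904 CPM, against 48743 to 58843 CPM. In the other wound groups the mt- sum did not set them apart. Hair follicle markers summed to 6377 CPM in P day-4 replicate 3, against 19.6 to 37.8 CPM in the other P day-4 wounds and 595 to 11057 CPM at day 12. That library also had the lowest nuclear, mt- and muscle marker sums of day 4, at 9664, 22446 and 6592 CPM. Ly6g, Retnlg and Trem1 among neutrophil markers and Krt73 among hair follicle markers had no counts in unwounded skin. The part of these lists in the respiratory chain results was not tested.

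The time course within wounds compares libraries without the 3 unwounded ones. At day 4, 3 nuclear members were called higher and 1 lower than at day 2, against 9.65% and 6.56% of all genes, and the median was 0.10. The 3 were Ndufa4l2, up by 1.68 ± 0.32 (adjusted p = 0.000593, edgeR), Cox6a1 at 0.30 ± 0.08 and Cox7a2l at 0.30 ± 0.07, and the lower one was Ndufaf4 at -0.32 ± 0.09. In the mt- set mt-Nd2 alone was called, at -0.52 ± 0.17 (adjusted p = 0.0367, edgeR). That call was lost without any of 12 single libraries: replicates 1, 3 and 4 of PD at day 2, 1, 2 and 4 of PD at day 4, 4 and 5 of P at day 2 and 1, 2, 3 and 5 of P at day 4. With the muscle marker term, 41 nuclear members were called higher and 1 lower. Of all 20657 genes, 2356 were then called higher and 2133 lower, 21.7% in either direction.

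Day 12 and day 4 wounds were compared in the same way. Of 12 mt- genes, 9 were called lower at day 12, with a median of -0.67, against 7 lower and 2 higher of 93 nuclear members, with a median of -0.14, and 22.3% lower and 22.4% higher of all genes. Among genes without a full nuclear copy, mt-Nd6 fell by 0.78 ± 0.19, mt-Nd5 by 0.67 ± 0.19, mt-Nd2 by 0.66 ± 0.17, mt-Co1 by 0.61 ± 0.19, mt-Nd1 by 0.61 ± 0.16 and mt-Nd4 by 0.55 ± 0.21, while mt-Cytb at -0.48 ± 0.22 was not called. The largest values, -1.20 for mt-Atp6 and -0.99 for mt-Co3, belong to genes with full copies. The call of mt-Nd4 was lost without PD day-12 replicate 2 or 6, PD day-4 replicate 3, 5 or 6, P day-12 replicate 1 or P day-4 replicate 4, that of mt-Atp6 without PD day-4 replicate 4, and that of mt-Co3 without most single libraries. With the muscle marker term 8 of the 9 calls remained, without that of mt-Co3. The calls were 4 with P wounds alone and 1 with PD wounds alone, where 2604 and 3224 of all 20657 genes were called lower.

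The nuclear genes called lower between those days were Sdhd, at -0.48 ± 0.10, Ndufa4, at -0.45 ± 0.11, Cox5a, Cox6b1 and Cox7b of complex IV, and Atp5pb and Atp5g3 of ATP synthase, and all 7 kept the call with the muscle marker term. Their number was 13 without replicate 3 of PD at day 12 and 4 without replicate 3 of PD at day 4. With library totals alone, 6 nuclear members were called higher and 2 lower, in a fit whose median over all genes was 0.19 in place of 0.00. In that fit 7083 of all 20657 genes were called higher and 2978 lower. The 2 nuclear members called higher with the composition correction were Cox6b2, by 1.26 ± 0.15 (adjusted p = 6.93e-08, edgeR), and Cox4i2, by 1.07 ± 0.19. Cox6b2 had 4.84, 7.496 and 10.7 CPM at day 12, against 1.79, 2.96 and 4.37 CPM at day 4, with no overlap.

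The comparison of the arms answers whether PD wounds differ from P wounds on the same day. No member and no other gene was called at day 2, 4 or 12 or in the mean over days (0% of 20657 genes, edgeR). DESeq2's Wald test called no member either, but it called 0.116%, 0.891% and 0% of all genes at days 2, 4 and 12 and 0.503% in the mean over days. At an unadjusted p under 0.05, 0, 23 and 10 of 93 nuclear members and 0, 0 and 2 of 12 mt- genes passed on the 3 days, against 3.84%, 11.5% and 4.95% of all genes. In the mean over days 63 nuclear members and no mt- gene passed, against 12.0% of all genes, with 0.403 as the lowest adjusted p of a member. With limma-voom and sample weights, 15 nuclear members were called higher, 1 lower and 2 mt- genes higher at day 4, against 4.72% higher and 5.23% lower of all genes.

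Nearly all nuclear members had a higher fitted level in PD wounds: 87, 92 and 91 of 93 at days 2, 4 and 12, against 47.8%, 49.3% and 44.7% of all genes, and 91 of 93 in the mean over days, against 46.0%. Members move together across libraries, so these are not 93 separate observations. The medians of the log2 differences were 0.10, 0.31 and 0.30 for nuclear members and -0.14, 0.38 and 0.55 for mt- genes. By role at day 4, complex I accessory subunits had a median of 0.39, complex IV widely expressed subunits 0.35, complex III 0.34, complex II 0.31, the complex I core 0.31 and ATP synthase 0.26. The lowest unadjusted p at day 4 belonged to Cox7c, a small complex IV subunit, with a log2 difference of 0.54 ± 0.20 (adjusted p = 0.38, edgeR), and at day 12 to Sdhd, with 0.33 ± 0.14 (adjusted p = 0.884, edgeR).

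The nuclear sum at day 4 was 11612, 14002 and 21135 CPM (lowest, median and highest of 6) in PD wounds, against 12186, 12430, 9664, 16340 and 10917 CPM in the 5 P wounds. At day 12 it was 9277, 13577 and 18382 CPM in PD wounds and 7606, 10893 and 14324 CPM in P wounds. The arms overlapped on both days. The muscle marker sum moved the same way, with medians of 31257 CPM in PD and 18156 CPM in P wounds at day 4 and 35435 CPM in PD and 12950 CPM in P wounds at day 12, while at day 2 it was 34861 CPM in PD and 52979 CPM in P wounds. The means of other marker sums also differed between the arms at day 4, while their libraries overlapped. Brown fat markers averaged 403 ± 144 CPM in PD and 219 ± 50.7 CPM in P wounds. Neutrophil markers averaged 8097 ± 4867 and 4740 ± 3243 CPM, and differentiated keratinocyte markers 6111 ± 6242 and 14897 ± 10658 CPM (SD, n = 6 and 5). The keratinocyte sum was 13967 and 14212.5 CPM in PD replicates 1 and 2 and 1144 to 3709 CPM in the other PD wounds. The brown fat sum includes the member Cox7a1. The part of these marker sums in the arm differences was not tested. With the muscle marker term, the nuclear medians were 0.14, 0.09 and -0.01 and the mt- medians -0.08, 0.18 and 0.02. In that fit 5, 2 and 0 nuclear members had an unadjusted p under 0.05. So did 1033, 963 and 271 of all 20657 genes, against 793, 2369 and 1022 without the term. The change of the arm difference between days was called for no gene, and the lowest adjusted p of a member was 0.726 (edgeR).

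Genes that supply or regulate the chain were described from general lists, beside 23.3%, 26.1% and 25.9% of all genes called higher and 21.7%, 23.4% and 22.8% called lower at days 2, 4 and 12. Of 13 citrate cycle genes, 10, 12 and 12 fell at days 2, 4 and 12, with medians of -0.70, -0.85 and -1.04, among them Idh3a at -1.54 at day 12. Of 24 genes for cytochrome c and the assembly of complexes II to V, 3, 4 and 2 rose and 5, 12 and 12 fell, and cytochrome c itself, Cycs, had -0.95 at day 12. Of 16 large-subunit genes of the mitochondrial ribosome, 6, 4 and 4 rose and 0, 1 and 1 fell, with medians of 0.16, 0.11 and 0.10. The higher share at days 4 and 12 is near that of all genes.

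Of 15 genes for the upkeep and transcription of mitochondrial DNA, 1, 1 and 2 rose and 6, 7 and 6 fell, beside the same shares of all genes. Tfam, which packages and helps transcribe mitochondrial DNA, had -0.10 at day 12 and was not called, and Tfb2m, a partner of the mitochondrial RNA polymerase, fell by 0.87. Of 11 nuclear regulators of mitochondrial genes, 4, 4 and 2 rose and 2, 4 and 6 fell. Ppargc1a, the coactivator PGC-1 alpha, fell by 1.38, 1.98 and 2.40, and Esrrg, one of its nuclear receptor partners abundant in oxidative muscle, fell by 2.61 at day 12. Nrf1, whose core motif is marked above, rose by 0.38 at day 12.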

How the data were processed

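Skin RNA was extracted with TRIzol and sequenced from poly(A)-selected TruSeq Stranded mRNA libraries on an Illumina NovaSeq instrument, per the labels' protocols. The submitters' processing notes name HISAT2 2.1.0 as the aligner and GRCm39 as the genome, with Trimmomatic for trimming, SAMtools 1.9, and HTSeq for the gene counts. The annotation release and the strand setting of the counting are not given in the sources used here. The deposited values are raw counts per gene and library, and the authors applied no normalization to them. Poly(A) selection and the handling of reads that fit several places can affect the mitochondrial genes in particular. Members and gene lists were chosen with earlier results of these data known.

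Genes passing edgeR's filterByExpr (minimum count 10, minimum total 15), 20657 in all, were tested with edgeR 4.0.16 in R 4.3.3: TMM factors, robust quasi-likelihood fit of 7 group means over 36 libraries, Benjamini-Hochberg adjustment over all genes. Wounds were compared with unwounded skin as the mean of both arms, and the standard error (SE) is the log2 fold change divided by the root of F. Alternatives were DESeq2 1.42.0 (test and size factors), limma 3.58.1 (voom with sample weights), library totals alone, scaling without mt- genes, other filters (none, or a minimum count of 50), only the libraries compared, a replicate block, the summed muscle markers as a term, 2 surrogate variables (sva 3.50.0) and each library left out. Each arm alone and a term separating replicates 1 and 2 from the rest were added after seeing the data.

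Lengths for levels per kilobase and shares of a pair are those of all exons of a gene joined, in the GENCODE annotation of GRCm39. All 114 members matched it by gene ID. Genes named with values were every mt- gene, complex II, Cyc1, the complex IV isoforms and their partners, and up to 5 called members in each direction of largest fold at a mean of at least 1 CPM. Names picked after their values were seen are marked as such, and the lowest p between arms, the list examples Idh3a, Cycs, Tfam, Tfb2m, Ppargc1a, Esrrg and Nrf1 were also picked that way. No 2 libraries of the same group agreed within sampling noise.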

Additional observations from a re-analysis of the deposited data

Results flagged for a closer look

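Single libraries stood apart from the rest of their group in 27 of 258 sets of values checked (Dixon's test at its 95% level, groups of 5 and 6). Chance gives about 1 in 20 for separate sets. Members move together across libraries, and P day-4 replicate 4 and PD day-2 replicate 4 gave most of the flags. The count therefore cannot be compared with that rate. The results below are given as values.

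In P wounds at day 4, replicate 4 had an mt- sum of 55460 CPM, a Cox6a2 share of 62.3% and a Cox8b share of 14.4% of their pairs. Its levels were 293 CPM for Cox6a2, 30.5 CPM for Cox7a1, 80.2 CPM for Cox8b, 157 CPM for Sdhb, 21802 CPM for mt-Co1, 12998 CPM for mt-Cytb, 3443 CPM for mt-Nd2, 5693 CPM for mt-Nd4 and 4059 CPM for mt-Nd5, all the highest of the group. Its mt-Co2 and mt-Co3 levels were 8.02 and 7.84 CPM. The muscle marker sum was 66953 CPM in this library and 6592 to 19345 CPM in the other 4.

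In PD wounds at day 2, replicate 4 had an mt- sum of 58343 CPM and levels of 256.1 CPM for Ndufa4, 22450 CPM for mt-Co1, 12542 CPM for mt-Cytb, 5621 CPM for mt-Nd4, 4297 CPM for mt-Nd5 and 3.11 CPM for mt-Co3. Its muscle marker sum was 65475 CPM, against 19672 to 41946 CPM in the other 4. Replicate 3 of the same group had 1.11 CPM of mt-Nd3.

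In PD wounds at day 4, replicate 5 had an mt- sum of 5.004 times its nuclear sum, replicate 4 had 8.68 CPM of mt-Atp6 and replicate 1 had 0.776 CPM of mt-Nd3. In PD wounds at day 12, replicate 3 had 3.93 CPM of mt-Atp6 and 3.76 CPM of mt-Co3.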

How the results depend on the processing

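The calls against unwounded skin rest on 3 libraries, and depth limits the genes of a few CPM. Of 86 called results for single genes, the alternatives other than leaving out a library gave 1098 values with the call kept, 94 with it lost and 3 with the sign turned. The 3 were Cox6a2 (0.35), Cox8b (0.54) and Cyc1 (0.11) at day 12 with the muscle marker term, and the muscle marker level itself differs between the groups. The replicate numbers were not taken as pairs, since nothing in the labels ties them to an animal or batch and same-numbered libraries of different groups did not all deviate together (median r 0.11, lowest -0.25, highest 0.54). The median was -0.03 for other pairs, and 10 of 36 libraries matched their own number best. No group mean of the nuclear sum, the mt- sum or their ratio moved by more than 1 SD with another scaling or without the complex I assembly factors. Leaving out 1 library cannot move a group mean that far, and rescaling cannot change the ratio, so neither tests stability there. The isoform shares were not checked. Causes of the changes below were not tested.

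Counts of called members moved by over 1.5 times as follows. With voom, day-4 PD against P wounds gave 15 nuclear genes higher and 1 lower and 2 mt- genes higher, beside 975 higher and 1081 lower of all 20657 genes. For day-2 wounds, nuclear lower calls were 65 with surrogate variables, 16 in PD wounds alone, 50 with voom, 11 with the muscle term, 51 with the replicate block and 55 with the term for replicates 1 and 2, nuclear higher calls were 13 with the muscle term, and mt- lower calls were 8, 6, 6 and 6 with surrogate variables, voom, the replicate block and the replicate 1 and 2 term and 1 with the stricter filter. Of all 20657 genes, 5883, 3798, 6897, 4734, 4869 and 5115 were lower in the order first given, against 4486 in the unaltered fit. With the muscle term 5129 were higher, against 4809, and with the stricter filter 4128 of 15895 were lower. For day-4 wounds, nuclear lower calls were 60, 13, 45, 9, 42 and 43 in the order first given, nuclear higher calls were 5 with surrogate variables, 5 in PD wounds alone, 11 with voom and 42 with the muscle term, and mt- lower calls were 3 in PD wounds alone, with the muscle term and with only the libraries compared. Of all genes, 6057, 4494, 7084, 4963, 5065 and 5306 were lower in the order first given, against 4839 in the unaltered fit. Higher were 6234, 5243, 7174 and 5467 in their order, against 5393. With only the libraries compared 4257 of 18841 were lower. For day-12 wounds, nuclear lower calls were 22 in PD wounds alone, 9 with the muscle term and 22 with library totals alone, nuclear higher calls were 35 with the muscle term, and mt- lower calls were 7 in PD wounds alone and 5 with the muscle term. Of all genes, 4276, 4565 and 2988 were lower in that order, against 4715, and 4956 were higher with the muscle term, against 5344.

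Between day 4 and day 2, nuclear higher calls were 7 with surrogate variables, 1 in PD wounds alone, 10 with voom, 41 with the muscle term, 5 with only the libraries compared, 5 with the replicate block and 7 with the replicate 1 and 2 term, nuclear lower calls were 9 with surrogate variables, 0 in either arm alone, 4 with voom and 2 with library totals alone, and mt- lower calls were 4, 0 and 2 with surrogate variables, either arm alone and voom. Of all genes, 2993, 551, 3384, 2356, 2139 of 18682, 2291 and 2492 were higher in that order, against 1993 in the unaltered fit. Lower were 2878, then 557 in P and 329 in PD wounds alone, 3535 and 1875, against 1356. Between day 12 and day 4, nuclear higher calls were 6 with surrogate variables, 4 with voom, 5 with the muscle term and 6 with library totals alone, nuclear lower calls were 13, 2, 2, 11, 2, 3, 11 and 13 with surrogate variables, P wounds alone, PD wounds alone, voom, library totals alone, only the libraries compared, the replicate block and the replicate 1 and 2 term, and mt- lower calls were 4 in P and 1 in PD wounds alone. Of all genes, 5376, 5768, 4956 and 7083 were higher in that order, against 4628 in the unaltered fit. Lower were 5446, 2604, 3224, 5795, 2978, 3762 of 19020, 4966 and 5111, against 4597. Leaving out each library in turn gave 9 to 32, 9 to 31 and 18 to 43 nuclear lower calls at days 2, 4 and 12, 2 to 3, 3 to 3 and 4 to 5 higher, and 2 to 3, 2 to 9 and 8 to 12 mt- lower calls. It gave 3 to 4 nuclear higher and 0 to 1 mt- lower calls between days 4 and 2, and 2 to 3 nuclear higher, 4 to 13 nuclear lower and 7 to 11 mt- lower calls between days 12 and 4. The numbers of all genes called with a library left out are not given here, so these ranges have no background to be read against.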
